A study of Mus musculus with 10 samples.

Results

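The genes described here are 7 that glucocorticoid hormones switch on (Plin4, Zbtb16, Tsc22d3, Fkbp5, Sgk1, Sult1a1 and Pdk4) and the 2 receptors for these hormones (Nr3c1 and Nr3c2). They were taken by symbol, and all 9 have a row among the 22046 genes of the deposited tables. Cerebella of Bmal1-/- mice (KO) and of their Bmal1+/+ littermates (WT) had been assayed for total RNA and for ribosome footprints. Breeding was between Bmal1+/- parents, the strain background was C57BL/6, and lights were on for 12 h and off for 12 h. BMAL1 is the clock's main activator of transcription, and its gene is listed as Arntl. The labels name no Cre driver for these animals, and they give neither age, sex, time of day of sampling nor hormone level. Values exist for 4 animals, KO1, KO3, WT2 and WT3, each with a total RNA library and a footprint library from the same lysate. Total RNA of KO2 and WT1 was not analysed here. Footprints are the 28 to 34 nt pieces of mRNA that ribosomes protect from RNase I, so they count the ribosomes on a gene's mRNA.

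Glucocorticoids, corticosterone in the mouse, cross the cell membrane and bind the glucocorticoid receptor, encoded by Nr3c1, which waits in the cytoplasm in a complex with HSP90 chaperones. The bound receptor moves to the nucleus and binds a palindromic DNA sequence, the glucocorticoid response element. The mineralocorticoid receptor, encoded by Nr3c2, binds the same hormone with higher affinity and the same DNA sequence. Blood corticosterone rises and falls with the day under control of the clock and the adrenal gland, so many of these genes cycle in many tissues. Among them, Fkbp5 encodes a cochaperone that lowers the receptor's affinity for hormone, a negative feedback on the receptor itself.

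Knockout total RNA libraries held 38.9 M and 43.2 M recovered reads and wild-type ones 25.6 M and 27.8 M. Footprint libraries held 41.0 M and 30.1 M reads in the knockout and 38.1 M and 27.7 M in the wild type. In total RNA the knockout libraries are the 2 deepest, so depth and genotype cannot be told apart there. Arntl, the targeted gene, had 124 and 107 RPKM of footprints in the knockout, against 258 and 295 RPKM in the wild type. Its total RNA was 267 and 272 RPKM in the knockout, against 179 and 179 RPKM in the wild type, and gene-level values cannot show which exons these reads cover. All 10 markers of cerebellar granule neurons and all 9 of Purkinje cells had reads in every library. RPKM, a read count divided by a length and by library depth, is compared here only within a gene, since its factor to reads differs between genes. Values are given as mean ± SD of 2 animals. With 2 animals against 2, an exact two-sided permutation test of 1 value cannot go below p = 0.333, so the tests come from limma, which shares the estimate of the spread over all genes. A gene is called when its Benjamini-Hochberg adjusted p over all tested genes is under 0.05. Log2 fold changes are KO minus WT on the log2(RPKM + 1) scale, which understates the change of low genes. A second test, limma-voom, ran on whole reads recovered from the same values.

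Promoter sequences, the 250 bases before a start site, are shown for 4 induced genes that cover the spread of responses, with 3 of lower RNA in the knockout and 1, Sgk1, of like RNA in both genotypes. They come from RefSeq on GRCm38.p6, the assembly also named mm10, which held windows for 7 of the 9 genes. They lie at chr17:56109783-56110032 on the minus strand for Plin4, at chrX:140542669-140542918 on the minus strand for Tsc22d3, at chr17:28486150-28486399 on the minus strand for Fkbp5 and at chr10:21993640-21993889 on the plus strand for Sgk1. Each reads 5′ to 3′ along its gene, and capitals mark a glucocorticoid response element or an E-box, the sequence that BMAL1 and its partner CLOCK bind.
Plin4: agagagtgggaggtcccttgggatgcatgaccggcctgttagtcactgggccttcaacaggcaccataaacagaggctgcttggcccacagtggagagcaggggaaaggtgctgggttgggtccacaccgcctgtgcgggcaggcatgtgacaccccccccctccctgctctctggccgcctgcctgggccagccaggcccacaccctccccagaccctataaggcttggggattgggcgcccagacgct
Tsc22d3: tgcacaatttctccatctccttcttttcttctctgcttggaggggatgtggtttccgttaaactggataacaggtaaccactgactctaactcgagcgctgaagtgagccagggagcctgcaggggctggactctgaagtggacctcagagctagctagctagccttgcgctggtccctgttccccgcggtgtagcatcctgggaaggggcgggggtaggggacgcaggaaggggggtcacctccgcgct
Fkbp5: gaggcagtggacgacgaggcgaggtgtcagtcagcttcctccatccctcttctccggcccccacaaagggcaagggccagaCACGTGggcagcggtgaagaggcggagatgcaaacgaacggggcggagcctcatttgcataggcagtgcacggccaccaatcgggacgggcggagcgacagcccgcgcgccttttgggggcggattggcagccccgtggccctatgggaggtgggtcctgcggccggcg
Sgk1: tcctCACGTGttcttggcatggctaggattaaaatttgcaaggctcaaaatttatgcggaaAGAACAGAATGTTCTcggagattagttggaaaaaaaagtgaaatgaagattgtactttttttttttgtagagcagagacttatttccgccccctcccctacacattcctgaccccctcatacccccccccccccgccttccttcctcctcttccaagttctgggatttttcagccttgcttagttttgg
Both strands were searched for the full palindrome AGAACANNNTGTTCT, for its shorter core GNACANNNTGTNC, for the E-box CACGTG and for the D-boxes TTATGTAA and TTACGTAA, which the clock output factor DBP binds. The Sgk1 window holds the full palindrome, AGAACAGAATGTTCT, beginning 189 bases before the start site, and an E-box beginning 246 bases before it. The core match in that window, GAACAGAATGTTC, lies inside the palindrome. Only 3 of all 32851 windows (0.009%) hold that palindrome, while 127 (0.39%) hold the core, 1978 (6.02%) the E-box and 306 (0.93%) a D-box. In Fkbp5 an E-box begins 169 bases before the start site. The other windows, 12 of 14 searched for these genes (6 for Sgk1, 3 for Tsc22d3 and 1 for each of the rest), hold none of these letters. A match is only a description of the sequence, and distal elements lie outside these windows.

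In total RNA, Plin4, Zbtb16 and Tsc22d3 were called, all lower in the knockout. These are 3 of the 7 genes that passed the filter of a mean of 1 RPKM, where 4.09% of all 12690 tested genes were called and 1.61% were called lower. Of the 7 tested genes 6 had a negative log2 fold change, as did 53.3% of all tested genes. The median of the 7 was -0.75, against -0.02 over all tested genes. The 9 genes were chosen with earlier results of these data known, so these shares describe them and are no test of the set. An unadjusted p under 0.05 was reached by 6 of the 7, and by 22.1% of all tested genes. Sult1a1 and Pdk4 stayed under the filter, although they had 163 and 254 reads per library on average, and were tested by limma-voom only. Limma-voom called 6 of the 9 genes, all lower (Plin4, Zbtb16, Tsc22d3, Fkbp5, Sult1a1 and Nr3c2), where it called 12.1% of 13880 genes and 6.25% lower. In bulk tissue, fewer cells of a type and less RNA per cell cannot be told apart.

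**Figure D1:**
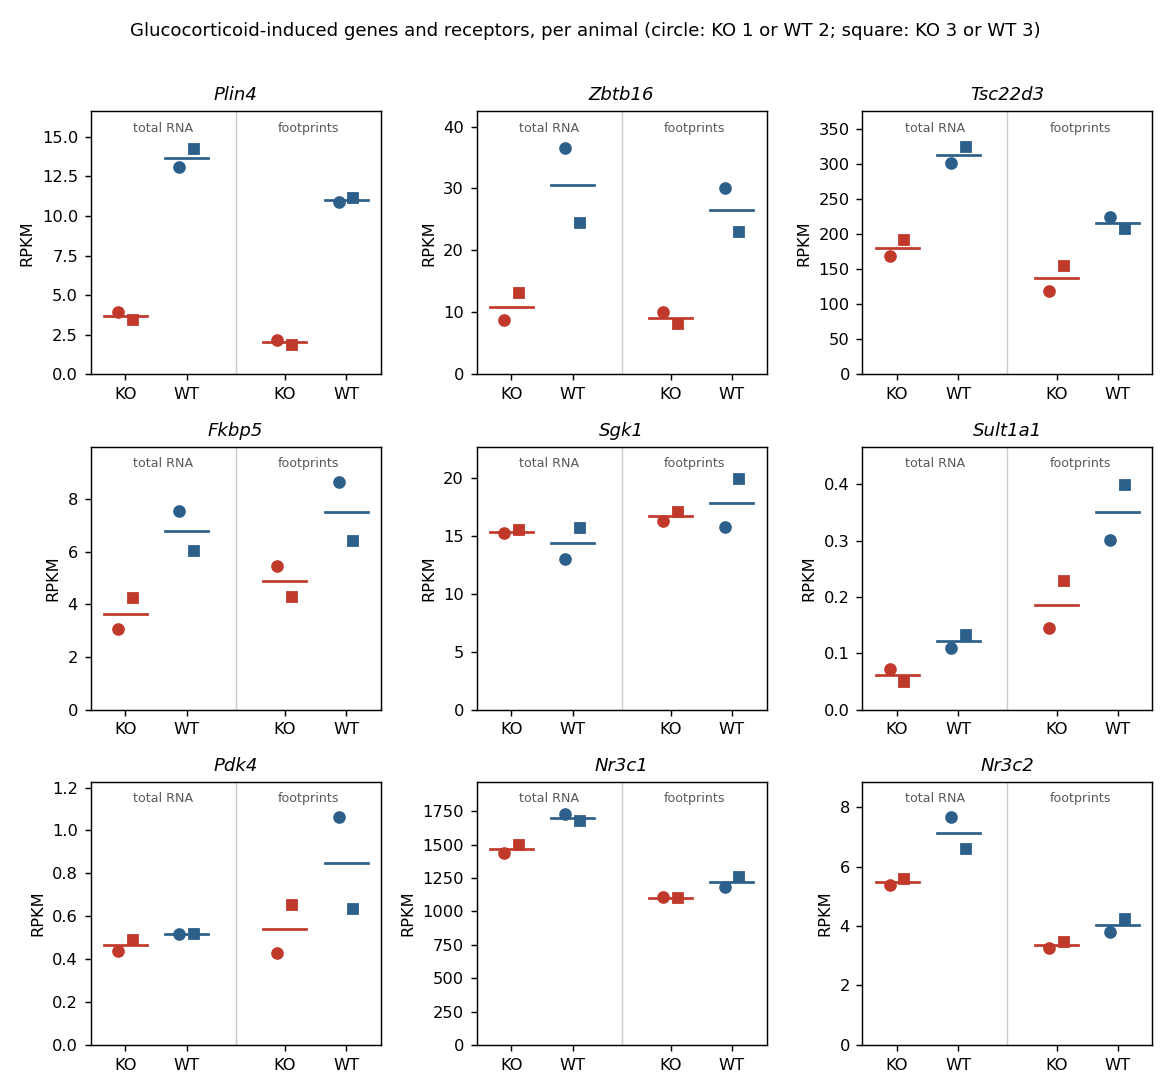
RPKM of each of the 9 genes in every library, on a linear axis from 0 that differs between panels, with total RNA and footprints side by side, knockout left of wild type, 1 point per animal and a line at the mean of 2. As a ratio of means in total RNA, Plin4 shows the widest gap, with 3.67 RPKM of total RNA in the knockout against 13.7 RPKM in the wild type, while the genotypes overlap for Sgk1.

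Plin4 (ENSMUSG00000002831; mm10 chromosome 17, 56100591 to 56109803, minus strand) encodes perilipin 4, a protein that coats lipid droplets. Its total RNA was 3.91 and 3.42 RPKM in the knockout, against 13.1 and 14.2 RPKM in the wild type. The genotypes were far apart and the animals of each genotype close together. The means were 3.67 ± 0.346 RPKM in the knockout and 13.7 ± 0.779 RPKM in the wild type, giving a ratio of 0.268. Its log2 fold change was -1.65 (SE 0.12, limma adjusted p = 0.00346), the 24th lowest p of all tested genes. Behind these values stood 73 and 71 reads in the knockout and 165 and 191 in the wild type, and limma-voom gave -1.92 (SE 0.28, adjusted p = 2.85e-05).

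Zbtb16 (ENSMUSG00000066687; chromosome 9, 48654297 to 48836222, minus strand) encodes the zinc finger repressor PLZF. In total RNA it had 8.72 and 13.2 RPKM in the knockout, against 36.5 and 24.5 RPKM in the wild type. The animals of each genotype spread widely, but even the higher knockout value lay under the lower wild-type value. The log2 fold change was -1.40 (SE 0.24, limma adjusted p = 0.0374), the 29th lowest of all tested genes. That call was lost without KO1 (adjusted p = 0.122) and without WT2 (adjusted p = 0.0848). Limma-voom gave -1.48 (SE 0.19, adjusted p = 2.94e-06) and called the gene without any 1 animal.

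Tsc22d3 (ENSMUSG00000031431; chromosome X, 140539528 to 140600659, minus strand) encodes GILZ, a leucine zipper protein that mediates anti-inflammatory effects of glucocorticoids. Its total RNA was 169 and 192 RPKM in the knockout, against 301 and 325 RPKM in the wild type. Both knockout animals lay well below both wild-type animals, at a ratio of means of 0.576. The log2 fold change was -0.79 (SE 0.10, limma adjusted p = 0.0135), and it lost its call without KO1 (adjusted p = 0.075). With 3603 and 4553 reads in the knockout and 4332 and 4987 in the wild type, it was the best covered of the induced genes in total RNA, and limma-voom gave -0.82 (SE 0.09, adjusted p = 5.28e-07).

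Fkbp5 (ENSMUSG00000024222; chromosome 17, 28399094 to 28517527, minus strand) had 3.06 and 4.24 RPKM of total RNA in the knockout, against 7.56 and 6.04 RPKM in the wild type. The genotypes did not overlap, as was so for 55.0% of all tested genes. Its log2 fold change of -0.75 (SE 0.17, 95% interval -1.17 to -0.33) missed the limma threshold (adjusted p = 0.0753). Limma-voom, which adds no pseudocount of 1 RPKM to this low gene, gave -0.92 (SE 0.17, adjusted p = 0.000452) and called it lower without any 1 animal as well.

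Sult1a1 (ENSMUSG00000030711; chromosome 7, 126672865 to 126676432, minus strand) encodes a sulfotransferase of phenols and catechols. Its total RNA was 0.0715 and 0.0496 RPKM in the knockout, against 0.110 and 0.133 RPKM in the wild type, or 96 and 74 reads against 99 and 128 reads. Relative to depth both knockout animals lay below both wild-type animals. Limma-voom gave -1.05 (SE 0.30, adjusted p = 0.022), a call that held without WT2 but not without any other 1 animal.

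Pdk4 (ENSMUSG00000019577; chromosome 6, 5483351 to 5496309, minus strand) encodes a kinase that shuts off pyruvate dehydrogenase and so spares glucose. It had 0.439 and 0.490 RPKM of total RNA in the knockout, against 0.516 and 0.517 RPKM in the wild type. The gap between genotypes was small, and the limma-voom log2 fold change was -0.18 (95% interval -0.60 to 0.25, adjusted p = 0.636).

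Sgk1 (ENSMUSG00000019970; chromosome 10, 21882184 to 21999903, plus strand) encodes a kinase of ion transport and is a target of both receptors. Its total RNA was 15.3 and 15.5 RPKM in the knockout, against 13.0 and 15.7 RPKM in the wild type. It was the one gene of the 9 whose genotypes overlapped in total RNA. Genotypes were apart there for 55% of all tested genes, and 30.3% of all had the knockout below. Sgk1 was also the one gene of the 9 with a positive log2 fold change, 0.10 (95% interval -0.19 to 0.39, limma adjusted p = 0.681). That interval lies above the whole interval of Tsc22d3 (-1.03 to -0.56), a description of these 2 genes and no test between them. Its window shown above is the only one of its 6 searched windows with a match, and it holds the full glucocorticoid response element.

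**Figure D2:**
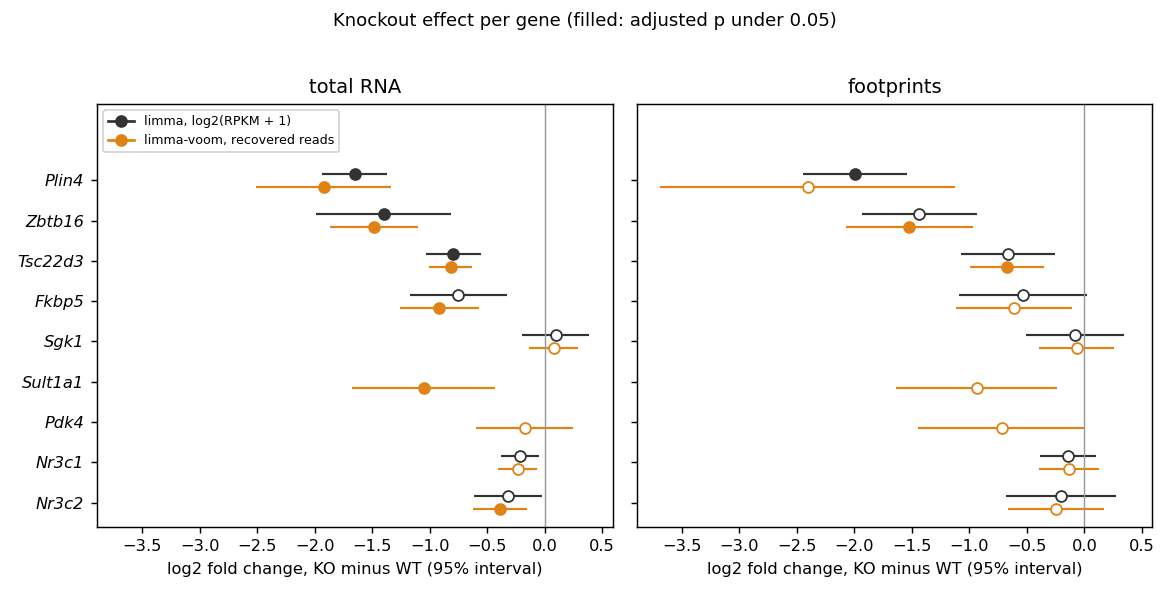
Log2 fold change, KO minus WT, of each of the 9 genes in total RNA (left) and footprints (right), with 95% intervals, by limma on log2(RPKM + 1) (dark) and by limma-voom on recovered reads (orange); filled points have an adjusted p under 0.05, and Sult1a1 and Pdk4 have limma-voom values only. Points of Plin4, Zbtb16, Tsc22d3 and Fkbp5 lie left of 0 in both panels, and those of Sgk1 lie near 0.

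The receptors showed smaller differences than Plin4, Zbtb16 and Tsc22d3. Nr3c1 (ENSMUSG00000024431; chromosome 18, 39410545 to 39519421, minus strand, in GENCODE M21, a longer span than the deposited gene length) had 1439.8 and 1500.2 RPKM of total RNA in the knockout, against 1729 and 1679.6 RPKM in the wild type. Both knockout animals were lower, at 0.862 of the wild-type mean. The log2 fold change of -0.21 (SE 0.07, 95% interval -0.38 to -0.05) was not called (limma adjusted p = 0.152, limma-voom adjusted p = 0.0636). It had 5984 to 8570 reads per total RNA library.

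Nr3c2 (ENSMUSG00000031618; chromosome 8, 76899442 to 77245012, plus strand) had 5.39 and 5.60 RPKM of total RNA in the knockout, against 7.68 and 6.59 RPKM in the wild type. The genotypes did not overlap, and the knockout mean was 0.770 of the wild-type mean. Its log2 fold change was -0.32 (SE 0.12, limma adjusted p = 0.198). Limma-voom gave -0.39 (SE 0.11) and called it lower (adjusted p = 0.0244), though among the fits that leave out 1 animal it did so only without WT3.

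In ribosome footprints the same direction was seen with fewer calls. All 7 genes tested by limma had a negative log2 fold change, as did 55.2% of all 12447 tested genes. The median of the 7 was -0.53, against -0.03 over all genes. Limma called 1 of the 7, Plin4, where 0.233% of all genes were called and 0.104% called lower. Limma-voom called 2 of 9, Zbtb16 and Tsc22d3, where it called 1.51% of all genes and 0.634% lower. All but Sgk1 and Pdk4 had both knockout animals below both wild-type animals, as was so for 22.6% of all tested genes.

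Plin4 had 2.19 and 1.85 RPKM of footprints in the knockout, against 10.9 and 11.2 RPKM in the wild type. This was the lowest ratio of means among the 9 genes, 0.184, from 40 and 25 reads in the knockout and 184 and 137 in the wild type. The log2 fold change was -1.99 (SE 0.18, limma adjusted p = 0.0351), and no fit that left out 1 animal called it (adjusted p from 0.155 to 0.250). Limma-voom, which weighs down so few reads, gave -2.41 (SE 0.60, adjusted p = 0.0657).

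Zbtb16 footprints were 10.1 and 8.13 RPKM in the knockout, against 30.0 and 23.0 RPKM in the wild type. That gap resembles the one in total RNA, with a log2 fold change of -1.44 (SE 0.20, limma adjusted p = 0.0895; limma-voom -1.52, SE 0.26, adjusted p = 0.0065). Tsc22d3 had 119 and 155 RPKM in the knockout, against 225 and 207 RPKM in the wild type, with -0.67 (SE 0.16, limma adjusted p = 0.255; limma-voom -0.68, SE 0.15, adjusted p = 0.0355). Without 1 animal, limma-voom called between 0 and 2 of the 9 genes, and 0 without WT2.

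Fkbp5 footprints were 5.48 and 4.26 RPKM in the knockout, against 8.65 and 6.39 RPKM in the wild type, and neither test called the difference of -0.53 (limma adjusted p = 0.502). For Sgk1 the footprints were 16.3 and 17.1 RPKM in the knockout, against 15.7 and 19.9 RPKM in the wild type, with the knockout values inside the wild-type range. Sult1a1 had 0.146 and 0.227 RPKM in the knockout, against 0.301 and 0.399 RPKM in the wild type, and a limma-voom log2 fold change of -0.94 (SE 0.33, adjusted p = 0.262). Pdk4 stood at 0.428 and 0.653 RPKM in the knockout, against 1.06 and 0.633 RPKM in the wild type, so that WT2 alone was high (518 reads, against 224 to 254 in the other footprint libraries).

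Nr3c1 footprints were 1105 and 1101 RPKM in the knockout, against 1184 and 1256 RPKM in the wild type, with a log2 fold change of -0.14 (95% interval -0.39 to 0.10). Nr3c2 had 3.26 and 3.47 RPKM in the knockout, against 3.81 and 4.23 RPKM in the wild type, with a log2 fold change of -0.20 (95% interval -0.68 to 0.28). Neither receptor was called in footprints by either test.

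Translational efficiency, deposited by the authors as footprint over total RNA RPKM of an animal, asks whether ribosome number changed apart from RNA level. None of the 9 genes was called as an interaction of genotype and library kind, by limma (7 tested, adjusted p = 0.997 each) or by limma-voom (9 tested). At an unadjusted p under 0.05 stood 0 of the 7 and 0 of the 9. Limma called 0.0165% of all 12089 tested genes and limma-voom 0.0072%, so the comparison gave almost no calls anywhere. Plin4 had a ratio of 0.561 and 0.541 in the knockout, against 0.829 and 0.784 in the wild type. Both knockout animals lay below both wild-type ones, and the interaction was -0.34 (95% interval -0.78 to 0.10). Sgk1 was the other gene with groups apart, at 1.07 and 1.11 in the knockout, against 1.21 and 1.27 in the wild type. Such 2 of 9 genes are no result about them, since genotypes were apart in this ratio for 31.8% of all genes with a value. The other 7 overlapped between genotypes, among them Fkbp5 with 1.79 and 1.01 in the knockout, against 1.14 and 1.06 in the wild type. Nr3c1 had 0.768 and 0.734 in the knockout, against 0.685 and 0.748 in the wild type.

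**Figure D3:**
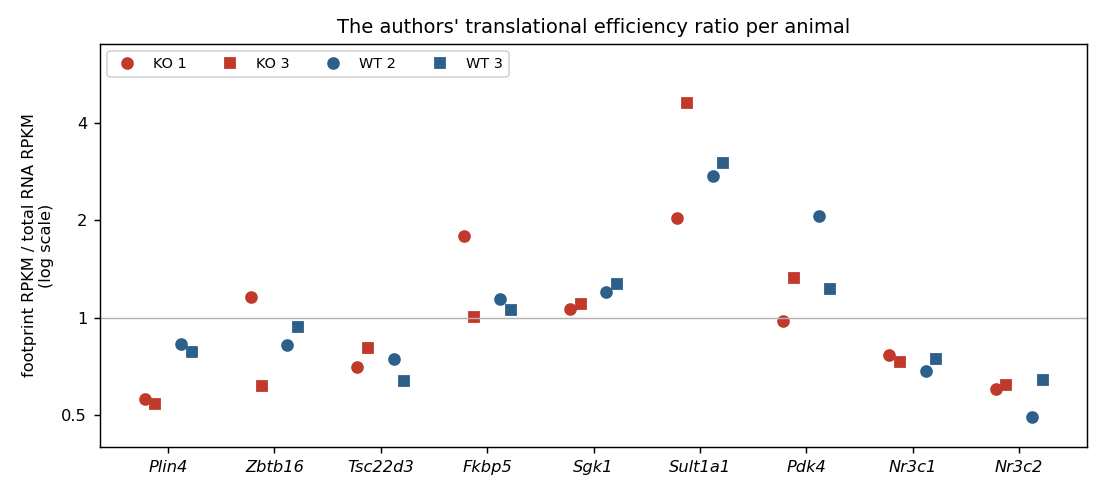
Translational efficiency, the authors' ratio of footprint to total RNA RPKM, of each of the 9 genes in the 4 animals, knockout left of wild type, 1 point per animal, on a log axis with a grey line at a ratio of 1. Plin4 and Sgk1 have both knockout points below both wild-type points, while the genotypes overlap for the other 7.

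Further genes of the glucocorticoid pathway were examined as 6 lists, also chosen with earlier results of these data known. Of 20 other glucocorticoid-induced genes, 17 were tested in total RNA by limma. Of these, 2 were called higher and 1 lower, where 4.09% of all tested genes were called and 1.61% called lower. The median log2 fold change was -0.21, against -0.02 over all genes, and 11 of the 17 were negative. An unadjusted p under 0.05 was reached by 12 of the 17, in both directions, and by 22.1% of all tested genes. Cdkn1a, the inhibitor p21 of cyclin-dependent kinases, had 14.8 and 13.8 RPKM in the knockout, against 2.79 and 1.82 RPKM in the wild type. At 2.23 (SE 0.16, limma adjusted p = 0.00363) it differed the opposite way to Plin4, and it kept its call without any 1 animal. Irs2, an adaptor of the insulin receptor, had 184 and 196 RPKM in the knockout, against 138 and 122 RPKM in the wild type, with 0.54 (limma adjusted p = 0.0401). It lost its limma call without KO1, KO3 or WT3 (adjusted p = 0.155, 0.161 and 0.0691), while limma-voom called it with all animals (adjusted p = 0.000395) and without any 1 animal.

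Per1, which encodes a clock repressor and is induced by glucocorticoids as well as by the BMAL1 complex, had 21.4 and 15.2 RPKM in the knockout, against 36.4 and 31.7 RPKM in the wild type. Its log2 fold change was -0.87 (SE 0.17, limma adjusted p = 0.0493), close to the threshold, and the limma call was lost without KO3, WT2 or WT3 (adjusted p = 0.122, 0.129 and 0.0679). Limma-voom gave -0.94 (SE 0.13, adjusted p = 1.01e-05) and called Per1 lower without any 1 animal too (adjusted p of 0.000828 or less). Klf9, a transcription factor with rapid hormone induction, had 71.4 and 74.2 RPKM in the knockout, against 82.5 and 88.9 RPKM in the wild type, and was not called by limma (-0.23, adjusted p = 0.206). Limma-voom called Klf9 lower (-0.26, adjusted p = 0.0415), but lost that call without KO1, KO3 or WT3 (adjusted p = 0.453, 0.167 and 0.179). Limma-voom called 3 of 18 genes of this list higher and 8 lower, where it called 12.1% of all genes and 6.25% lower.

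Hsd11b1 encodes the enzyme that regenerates active glucocorticoid from its inert keto form inside cells. Its total RNA was 26.6 and 29.0 RPKM in the knockout, against 58.1 and 59.7 RPKM in the wild type. The gap was wide against the spread, with a log2 fold change of -1.05 (SE 0.09, limma adjusted p = 0.00603), and the gene was called without any 1 animal (adjusted p from 0.0173 to 0.0393). Limma called 1.61% of all tested genes lower. Hsd11b1 was the 1 gene called of the 5 tested in the list of steroid metabolism and transport, which has 7. Its footprints were 93.0 and 88.7 RPKM in the knockout, against 166 and 177 RPKM in the wild type, with -0.91 (SE 0.12, limma adjusted p = 0.0801, limma-voom adjusted p = 0.00113).

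Of 13 receptor chaperones and cochaperones limma called 0 in total RNA. Their median log2 fold change was -0.16, and 11 were negative, as were 53.3% of all tested genes. Unadjusted p was under 0.05 for 4 of the 13, against 22.1% of all tested genes, and limma-voom called 2 lower, against 6.25% of all genes. Fkbp4, the cochaperone that opposes Fkbp5 at the receptor, had 64.2 and 67.9 RPKM in the knockout, against 71.9 and 74.7 RPKM in the wild type (-0.15, limma adjusted p = 0.378). Of 13 receptor coregulators limma called 0, with 1 at an unadjusted p under 0.05 and a median of 0.04, and limma-voom called 0. Of 4 other steroid receptors 2 were tested by limma and 0 called, with 0 at an unadjusted p under 0.05, while limma-voom called 1 of 3 lower. Among 23 paralogs of the 9 genes, limma tested 15 and called 1 higher and 0 lower, with a median of 0.01, against 4.09% of all genes called. Limma-voom called 2 of 18 higher and 1 lower, against 12.1% of all genes called. The lower one by limma-voom, named after its values were seen, was Plin3, a paralog of Plin4 (-0.59, adjusted p = 0.00278; limma -0.49, adjusted p = 0.0914). The one called by limma was Pdk2, a kinase of pyruvate dehydrogenase like Pdk4, with 72.4 and 63.6 RPKM in the knockout, against 47.9 and 44.9 RPKM in the wild type (0.54, limma adjusted p = 0.0471). Pdk2 lost its limma call without each animal in turn (adjusted p from 0.0835 to 0.291), while limma-voom called it (adjusted p = 0.000645), except without KO1 (adjusted p = 0.0536).

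In footprints, limma called 1 gene of all 6 lists, Cdkn1a, which had 28.3 and 39.2 RPKM in the knockout, against 6.04 and 5.30 RPKM in the wild type (2.37, SE 0.20, adjusted p = 0.0351). No limma fit without 1 animal called it, while limma-voom with all animals did (2.54, SE 0.22, adjusted p = 1.51e-05). Per1 footprints were 11.1 and 16.5 RPKM in the knockout, against 34.4 and 34.4 RPKM in the wild type, with a log2 fold change of -1.28 (SE 0.21, limma adjusted p = 0.118, limma-voom adjusted p = 0.00171). The footprint differences of Klf9, Irs2, Fkbp4 and Pdk2 were -0.07, 0.05, -0.08 and 0.14 and were not called by either test. In translational efficiency limma and limma-voom called 0 genes of the 6 lists, with 1 gene of the chaperone list at an unadjusted p under 0.05 by each.

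**Figure D4:**
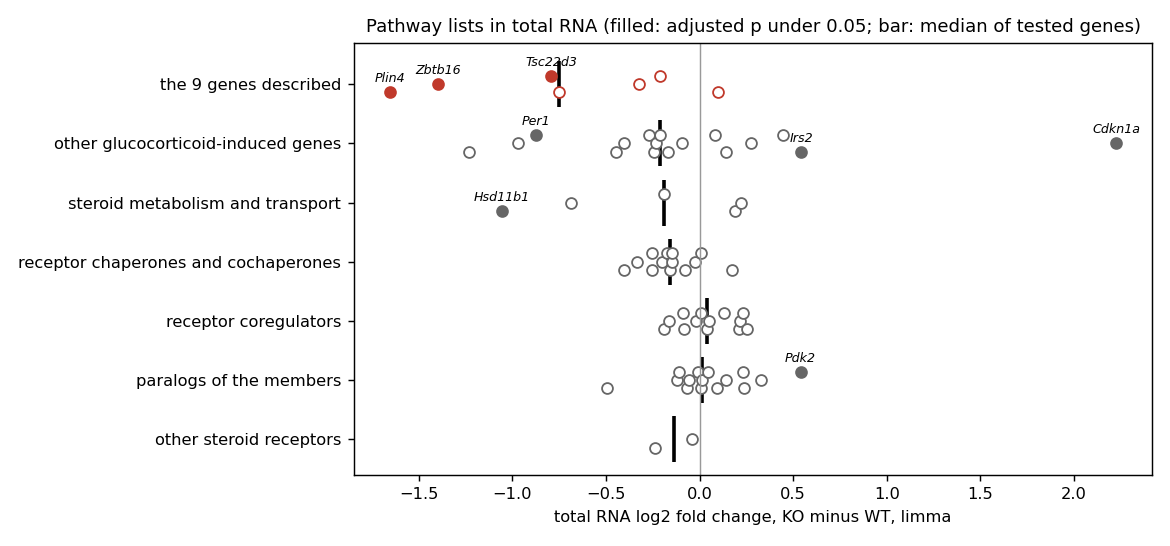
Log2 fold change in total RNA, KO minus WT, of every gene tested by limma among the 9 genes and in the 6 lists of the glucocorticoid pathway, 1 point per gene, filled where the adjusted p is under 0.05, with a bar at each list's median. The median is -0.75 for the 9 genes (7 tested) and lies between -0.21 and 0.04 in the 6 lists.

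Summed levels of some cell type markers differed between genotypes in total RNA, and their part in the results above was not tested. Over all tested genes, limma called 4.09% in total RNA and limma-voom 12.1%, in either direction. The 12 oligodendrocyte markers, all with reads in every library, summed to 4060 and 3888 CPM (recovered reads scaled to the library total) in the knockout, against 6066 and 4462 in the wild type, with 1 of 12 called lower by limma, and 4 lower and 1 higher by limma-voom. In footprints the same sum was 5353 and 6258 in the knockout, against 7645 and 7733 in the wild type. The 10 microglia markers, none at 0, summed to 163 and 170 CPM of total RNA in the knockout, against 226 and 231 in the wild type, with 2 of 9 tested called lower by limma and 6 of 10 by limma-voom. Choroid plexus markers, 9 of 9 with reads in every library, went the other way, at 1859 and 2195 in the knockout, against 873 and 66.9 in the wild type, with 2 of 7 tested called higher by limma and 8 of 9 by limma-voom, and WT3 stood far below the rest. Granule neuron markers summed to 8203 and 8212 in the knockout, against 6622 and 7226 in the wild type, with 2 of 10 called higher by limma and 5 by limma-voom. Endothelial and mural markers, 12 of 12 with reads, overlapped between genotypes, at 272 and 232 in the knockout, against 286 and 208 in the wild type, with 1 of 11 called higher by limma, and 1 of 12 higher and 1 lower by limma-voom.

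Genes listed as brainstem and midbrain markers were lower in sum in the knockout, and some stood out in WT2. In such a sum, RNA of neighbouring tissue and of the cerebellum itself cannot be told apart. The 5 with reads in every library (Tph2, Slc17a6, Slc6a5, Th and Chat) summed to 138 and 142 CPM of total RNA in the knockout, against 235 and 179 CPM in the wild type. Slc17a6 and Slc6a5 had the most reads of the 5 (3942 and 1985 on average), and Tph2 and Chat the fewest (27 and 9). In footprints they summed to 189 and 176 CPM in the knockout, against 301 and 235 CPM in the wild type. Limma and limma-voom both called Slc17a6 lower (limma adjusted p = 0.0277) and Tph2 higher (limma adjusted p = 0.0402) in total RNA. Hoxa5 had 1.39 and 1.57 RPKM of total RNA in the knockout, against 40.6 RPKM in WT2 and 0.727 RPKM in WT3. Hoxb5 had 0.357 and 1.44 RPKM in the knockout, against 31.2 RPKM in WT2 and 0 in WT3. Slc17a6, by contrast, was alike in both wild-type animals, at 75.8 RPKM in WT2 and 74.4 RPKM in WT3, against 49.7 and 51.9 RPKM in the knockout. Without WT2, the limma log2 fold changes in total RNA were -1.71 for Plin4 (-1.65 with all animals), -0.85 for Tsc22d3 (-0.79) and -1.07 for Hsd11b1 (-1.05). They were -1.12 for Zbtb16 (-1.40 with all animals), -0.61 for Fkbp5 (-0.75) and -0.78 for Per1 (-0.87). The receptors stood at -0.19 for Nr3c1 (-0.21) and -0.23 for Nr3c2 (-0.32), and Sgk1 at -0.029 (0.10). Leaving out WT2 takes away its high Hox values but not the gap in Slc17a6. The part of neighbouring tissue in the results above was not tested.

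For each of the genes called in total RNA, the 3 most similar of 12088 other genes were found by the root mean square difference of log2(RPKM + 1) over the 8 libraries, centred within each library kind. Nearest to Plin4 were Dbp (0.11), Greb1 (0.15) and Tdo2 (0.19), against a median of 0.92 over all genes. Dbp, an output gene of the clock, had a KO minus WT difference of -1.85 in total RNA and -2.03 in footprints on that scale. It was picked for likeness to Plin4 over these same libraries, so a like difference follows from the choice. Nearest to Zbtb16 were Ifit3 (0.22), Cdh19 (0.23) and Tmsb4x (0.26), against a median of 0.75. Nearest to Tsc22d3 were Vim (0.07), Klhl1 (0.09) and Gpd1 (0.10), against a median of 0.40. These neighbours depend on the pseudocount, since with 0.1 RPKM in its place 1 of 3 remained for Plin4, 0 of 3 for Zbtb16 and 2 of 3 for Tsc22d3.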

How the data were processed

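Whole frozen cerebellum was lysed, and each lysate gave total RNA and RNase I footprints, both depleted of ribosomal RNA, per the labels' protocols. Bowtie, STAR and Cufflinks with mm10 are named in the submitters' processing notes, without versions, settings or roles. The authors deposited RPKM per gene and library for 8 of 10 libraries, a translational efficiency ratio and a mean read count per gene. The ratio equals footprint over total RNA RPKM within 0.0812% in the 9 genes. The length behind RPKM and the rule for shared reads are not given in the sources used here, so values of genes that overlap others, such as paralogous sulfotransferases, could hold shared reads.

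Whole reads were recovered for 13880 genes from the deposited mean read count, taken as a geometric mean, and the depth steps of the low values. Of 2336 such values 100% fell within 0.1 of a whole number. On these reads limma-voom called 1684 genes in total RNA, 210 in footprints and 1 in translational efficiency, against 519, 29 and 2 in the main test. That test was limma 3.58.1 in R 4.3.3, with a variance trend, on log2(RPKM + 1), for genes averaging 1 RPKM or more over the libraries of a comparison. For efficiency the model held an interaction between genotype and library kind. The scripts were tested on simulated data. The design had been written for every library with a column. Counting error and animal spread enter these tests together, and precision is limited by 2 animals per genotype, separate littermates per the labels.

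The 9 genes and the lists were chosen with earlier results of these data known. Text names the 9 genes, up to 6 genes called by limma per pathway list and comparison, and Per1, Klf9, Hsd11b1 and Fkbp4 whatever their result. Other genes of the pathway lists that limma-voom alone called are not named, except Plin3. Total RNA and footprints of 1 animal come from the same lysate, but the main efficiency test holds no term for the animal, which enters as a block in an alternative. Their deviations correlated at -0.004 among knockout and 0.259 among wild-type animals over 12089 genes. Alternatives were another pseudocount, no filter, a read filter, quantile normalization, no trend, 1 joint fit, limma-voom, the animal as block, and leaving out each animal.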

Additional observations from a re-analysis of the deposited data

How the results depend on the processing

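Of the 9 genes, 3 were called in total RNA, and 3 again with a pseudocount of 0.1, with a mean of at least 100 reads in place of the RPKM filter, in which case Fkbp5 was called and Plin4 was not tested, and with all libraries in one fit. The count was 0 with no filter (26 calls over all genes), 2 with quantile normalization, 2 with no variance trend, in both of which Zbtb16 was lost (adjusted p = 0.0523 and 0.0566), 6 with limma-voom, 1 to 3 without 1 animal, and 4 to 5 with limma-voom without 1 animal. In footprints 1 gene was called, against 0 with no filter, 2 with limma-voom, 2 in one fit, 0 without any 1 animal, and 0 to 2 with limma-voom without 1 animal. In translational efficiency 0 genes were called in every alternative, including the animal as replicate block (0 by limma and 0 by limma-voom). Replicate numbers were not taken as pairs of KO and WT animals, so genotypes were not compared in pairs. Each animal has 1 library of each kind, so the animal could be fitted as a block only for translational efficiency.

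Over all genes, total RNA calls were 519, with 315 higher and 204 lower, against 816 higher and 868 lower by limma-voom. They were 798 with the read filter, 350 without the trend, 217 in one fit and 117 to 563 without 1 animal. Footprint calls were 29, against 17 with the other pseudocount, 1 with no filter, 57 with the read filter, 210 by limma-voom, 315 in one fit and 1 to 6 without 1 animal. The causes were not tested.

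Values that changed sign were not called in any of these fits. Without 1 animal, Sgk1 ranged from -0.029 (without WT2) to 0.22 in total RNA, and reached -0.042 by limma-voom. In footprints Sgk1 ranged from -0.24 to 0.080 (without WT3), with 0.091 by limma-voom. Klf9 footprints ranged from -0.36 to 0.23, turning positive without KO1 or WT3 (limma-voom 0.26 and 0.069). Irs2 ranged from -0.28 to 0.37, negative without KO3 or WT2 (limma-voom -0.27 and -0.019), and Pdk2 from -0.011 to 0.29, negative without KO3 or WT2 (limma-voom -0.0018 without KO3). Fkbp4 became 0.013 by limma-voom without KO1. In translational efficiency Zbtb16 became 0.0032 with the animal as replicate block by limma-voom, and ranged from -0.45 to 0.37, positive without KO3 or WT3 (limma-voom 0.40 and 0.091). Fkbp5 ranged from -0.11 (without KO1) to 0.55 (limma-voom -0.12 without KO1), and Nr3c2 from -0.038 (without WT2) to 0.28 (limma-voom -0.056 without WT2). Sult1a1, 0.12 by limma-voom, became -0.11 by limma with no filter and -0.11 with the read filter, and -0.44 by limma-voom without KO3. Among the values of single genes under the alternatives, 31 passed the threshold where the reported value had not, and 55 no longer did. Among the 9 genes, Plin4 footprints had the fewest reads, 40 and 25 in the knockout.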

Other observations

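Markers of further cell types gave these summed levels in total RNA, where limma called 4.09% of all tested genes and limma-voom 12.1%. Purkinje cell markers reached 9259 and 10217 CPM in the knockout, against 10345 and 11506 in the wild type, and limma called 0 of 9, with 2 at an unadjusted p under 0.05 and 2 lower by limma-voom. Astrocyte and Bergmann glia markers overlapped between genotypes, at 7571 and 7670 in the knockout, against 7861 and 7627 in the wild type, with 1 of 11 called lower by limma, and 1 higher and 2 lower by limma-voom. Meningeal fibroblast markers stood at 1008 and 1036 in the knockout, against 1054 and 1121 in the wild type, with 1 of 7 called higher (Igfbp2, 1.07) and 1 lower (Dcn, -0.82) by limma, and 2 of 8 higher and 1 lower by limma-voom. Markers of blood overlapped, at 74.7 and 66.8 in the knockout, against 85.3 and 65.9 in the wild type, with 0 of 5 called by limma, 1 at an unadjusted p under 0.05, and 1 of 6 called lower by limma-voom. Among glucocorticoid-induced genes, Tat and Pck1, both liver genes of glucose production and amino acid breakdown, were each listed at 0 in 6 of the 8 libraries. Serpina6, which encodes the corticosteroid-binding globulin of blood, was listed at 0 in all 8.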
